A study of Homo sapiens with 4 samples.

Results

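Homeobox factors encoded outside the HOX clusters were followed in CD31+ cells with and without overexpression of HAND1. The set holds 55 genes in 13 family groups, chosen by gene symbol, among 58229 genes kept from the deposited table. All 55 symbols had a row. CD31, the product of PECAM1, is found on the surface of endothelium and of many early blood cells. The cells were made from the established human embryonic stem cell line H1 and were collected at day 8 of hematopoietic differentiation, a culture begun with activinA and BMP4 and continued with VEGF and bFGF. The Control group (2 libraries) had no added HAND1, and the HAND1_OE group (2 libraries) overexpressed HAND1, a basic helix-loop-helix transcription factor, which the study introduced before hemogenic endothelial cells turn into blood progenitors. Both groups shared the H1 background, the culture and the selection for CD31. The promoter that drove HAND1, and whether the overexpressing cells were 1 clone, are not given in the sources used here. The labels do not say that the libraries of a group came from separate cultures, so p-values measure only the spread between these libraries, which may be technical.

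Homeobox genes encode transcription factors with a homeodomain, a folded stretch that binds short AT-rich DNA. Those outside the HOX clusters sit alone or in small groups and act in many lineages. MEIS and PBX factors bind DNA as partners of HOX proteins. BARH, DLX, PITX, IRX, NKX and LIM homeodomain factors set regional identity in neural, skeletal and heart tissue. HHEX, also outside the HOX clusters, is known from early endothelial and blood development. MIXL1 is known from the primitive streak and the mesoderm and endoderm that leave it.

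Expression is given in FPKM, fragments scaled to transcript length and library depth. HAND1 itself was at 12.1 and 14.3 FPKM in the Control libraries against 520.5 and 517 FPKM in the HAND1_OE libraries. Its log2 fold change, the difference in mean log2(FPKM + 1), was 5.20 (standard error 0.152, limma adjusted p = 0.00145). A gene was tested if it reached 1 FPKM in at least 2 libraries, and called if its limma adjusted p over all 14622 genes tested was under 0.05. Depth differed little, from 0.980 to 1.18 times that of Control replicate 1. A single fragment on a 2 kb transcript added 0.0214 to 0.0261 FPKM, so values of a few hundredths there rest on very few fragments. PECAM1, which encodes CD31, was at 95.5 and 141 FPKM in Control against 92.0 and 160 FPKM in HAND1_OE. Many early blood cells also carry CD31, so this level does not identify the cells as endothelial. Of 10 endothelial markers 1, CLDN5, was called, as lower. EMCN, not called, was at 22.8 and 34.2 FPKM in Control against 58.5 and 88.3 FPKM in HAND1_OE. TIE1 and KDR, also not called, were lower in both HAND1_OE libraries. TIE1 was at 311 and 278 FPKM in Control against 219 and 251 FPKM in HAND1_OE. KDR was at 272 and 268 FPKM in Control against 251 and 267 FPKM in HAND1_OE. The remaining endothelial markers overlapped between the groups.

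In these cells 3 of the 55 homeobox genes were called. BARHL1 rose in HAND1_OE from near 0, and HHEX and MIXL1 fell to lower but measurable levels. Of the 55, 22 were expressed highly enough to be tested, 19 of these were not called, and 33 were not tested. Over all genes tested 2.04% were called higher, 2.11% lower and 4.16% in either direction. These shares stand beside 1, 2 and 3 of the 22 homeobox genes (13.6% in either direction). The list was chosen with earlier results of these data known, so setting the shares side by side is no test. Of 38 tested homeobox genes outside both the list and the HOX clusters, 5.26% were called. BARHL1 was the only one of the 22 that met the expression minimum through HAND1_OE alone, so its entry into the test already required a difference. None met it through Control alone.

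**Figure D1:**
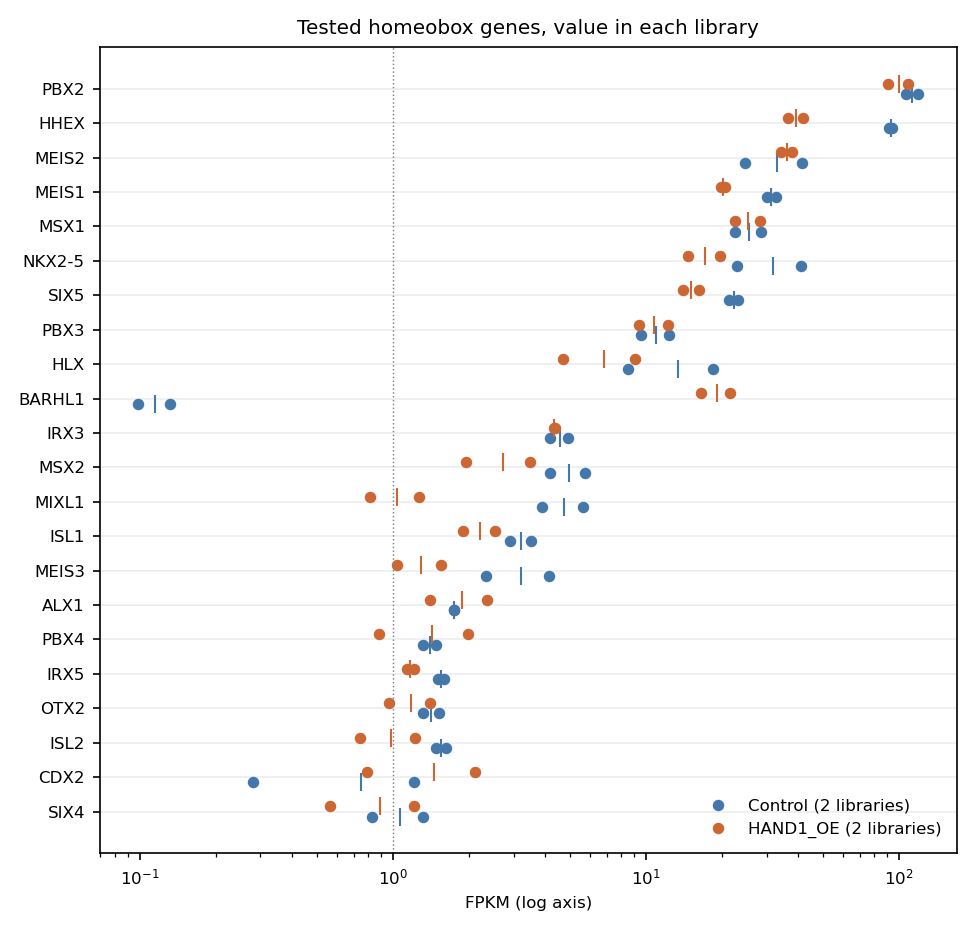
FPKM of the 22 tested homeobox genes in each library on a log axis, with a point for each Control and each HAND1_OE library. BARHL1 lies at 0.132 and 0.0989 FPKM in the Control libraries against 21.5 and 16.6 FPKM in HAND1_OE, while HHEX and MIXL1 lie lower in both HAND1_OE libraries than in both Control libraries.

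BARHL1 encodes a homeodomain factor of the BARH family, known from the developing brain and from sensory hair cells of the inner ear. The gene (ENSG00000125492.9) lies on the forward strand of chromosome 9 at chr9:132582185-132590266 in GRCh38. It was at 0.132 and 0.0989 FPKM in the Control libraries against 21.5 and 16.6 FPKM in the HAND1_OE libraries. On a 2 kb transcript the Control values would be a handful of fragments, while both HAND1_OE values are moderate levels. The means were 0.115 ± 0.0231 and 19.05 ± 3.49 FPKM (SD, n = 2 each). The log2 fold change was 4.16 (95% interval 3.65 to 4.66, limma adjusted p = 0.00379), the fourth largest rise of the 14622 genes tested. BARHL1 met the expression minimum through HAND1_OE alone, so its entry into the test already required a difference. Its adjusted p and its rank carry that limit. On the log2(FPKM + 1) scale the change of a gene this low in Control is understated. With a pseudocount of 0.1 the log2 fold change was 6.47.

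The other BARH and BARX genes stayed far below BARHL1 and were not tested. BARHL2, the closest relative, was at 0.0266 and 0 FPKM in Control and was listed at 0 in both HAND1_OE libraries. BARX1, a factor of stomach and jaw mesenchyme, was at 0.181 and 0.0886 FPKM in Control against 0 and 0.105 FPKM in HAND1_OE. BARX2 lay between 0.0286 and 0.0591 FPKM in all 4 libraries. The highest value of these 3 relatives in any library was thus 0.181 FPKM, for BARX1.

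The genes around BARHL1 were also read. Within 300 kb, 6 other genes were tested and 0 were called by limma (0 also at an unadjusted p under 0.05), with log2 fold changes from -0.12 to 0.52. DDX31, 2731 bases from BARHL1, was at 6.97 and 6.07 FPKM in Control against 6.25 and 5.93 FPKM in HAND1_OE. Markers of neural cells moved in part: 1 of 8, NES, was called as higher, 2 of 8 were tested, and the summed level of the list was 41.4 to 48.7 FPKM in Control and 88.0 to 92.8 FPKM in HAND1_OE. TUBB3, the other one tested, was at 19.0 and 24.2 FPKM in Control against 34.9 and 39.9 FPKM in HAND1_OE and was not called (log2 fold change 0.77, limma adjusted p = 0.0882). NES was at 21.7 and 23.8 FPKM in Control against 57.1 and 47.8 FPKM in HAND1_OE. NES and TUBB3 together made up most of the summed level of the list. MAP2 and STMN2, not tested, overlapped between the groups. SOX1, SOX2 and PAX6 of the same list stayed at or under 0.0896 FPKM in every library, and ELAVL3 was listed at 0 in all 4. Of 8 mesenchyme markers 7 were tested and 3 (PDGFRB, LUM and POSTN) were called higher, and their list summed to 349 to 431 FPKM in Control and 501 to 561 FPKM in HAND1_OE. Not all of the list lay that way: COL1A2, not called, was at 154 and 141 FPKM in Control against 68.6 and 101 FPKM in HAND1_OE (log2 fold change -0.82, limma adjusted p = 0.123), and COL1A1 was also lower in both HAND1_OE libraries without passing the test. The part of such cells in the BARHL1 result was not tested.

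HHEX encodes a homeodomain repressor needed for early endothelial, blood and liver development, and it was the second most abundant of the 55 genes in Control. It (ENSG00000152804.10) lies on the forward strand of chromosome 10 at chr10:92689951-92695646 in GRCh38. It was at 93.7 and 91.7 FPKM in the Control libraries against 36.6 and 41.7 FPKM in the HAND1_OE libraries. The groups lay well apart, and the libraries within each were close to each other. The means were 92.7 ± 1.47 and 39.2 ± 3.65 FPKM (SD, n = 2 each), a log2 fold change of -1.23 (95% interval -1.59 to -0.86, limma adjusted p = 0.0168). Without Control replicate 1 the adjusted p was 0.0689, and without Control replicate 2 it was 0.0681, in limma fits in which the lone Control library was assumed to vary like the other group.

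Blood markers moved alongside. Of 10 blood markers 9 were tested and all 9 were called lower, and their summed level was 861 to 1169 FPKM in Control and 46.8 to 65.9 FPKM in HAND1_OE. PTPRC, the tenth, was at or under 0.0227 FPKM in every library. In RNA from a mixed population, fewer cells of a type and less RNA per cell cannot be told apart. The part of the blood cells in the HHEX and MIXL1 results was not tested. The summed level of the 10 endothelial markers overlapped between the groups, at 1749 to 2225 FPKM in Control and 1886 to 2161 FPKM in HAND1_OE.

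MIXL1 encodes a paired-like factor of the primitive streak, where mesoderm and endoderm are laid down. It (ENSG00000185155.11) lies on the forward strand of chromosome 1 at chr1:226223618-226227054 in GRCh38. It was at 5.63 and 3.89 FPKM in the Control libraries against 0.813 and 1.27 FPKM in the HAND1_OE libraries. Both HAND1_OE values lay below both Control values. The means were 4.76 ± 1.23 and 1.04 ± 0.324 FPKM (SD, n = 2 each), a log2 fold change of -1.49 (95% interval -2.10 to -0.88, limma adjusted p = 0.0369). This was the least firm of the 3 calls: leaving out Control replicate 1 gave an adjusted p of 0.113 in limma, leaving out Control replicate 2 gave 0.0538, and leaving out HAND1_OE replicate 1 gave 0.0629.

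Genes near MIXL1 and HHEX were read in the same way. Within 300 kb of MIXL1, 6 genes were tested and 0 were called by limma (2 at an unadjusted p under 0.05), with log2 fold changes from -0.50 to 0.33. Within 300 kb of HHEX, 3 genes were tested and 0 were called (0 at an unadjusted p under 0.05), with log2 fold changes from -1.28 to -0.02. The lower end of that range is EXOC6, which was at 25.3 FPKM in Control replicate 1 and at 5.70 FPKM in Control replicate 2, against 5.38 and 3.68 FPKM in HAND1_OE.

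**Figure D2:**
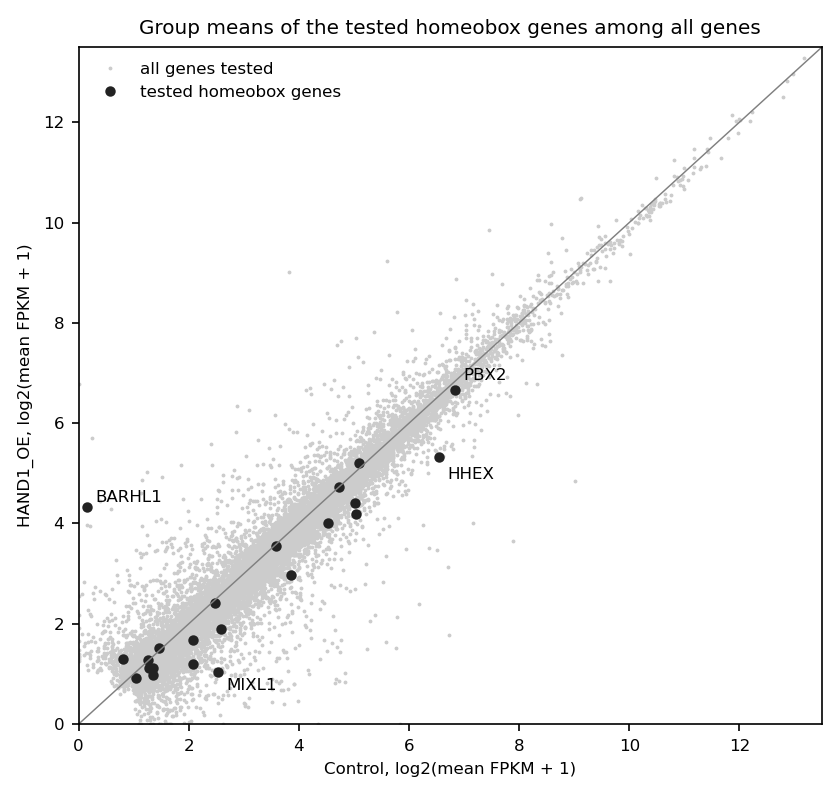
Group means of all 14622 genes tested (grey) and of the 22 tested homeobox genes (black), as log2(mean FPKM + 1), with Control on the horizontal and HAND1_OE on the vertical axis and a line where they are equal. BARHL1 lies far above the line from a Control mean of 0.115 FPKM, HHEX and MIXL1 lie below it, and most of the other homeobox genes lie near it.

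The sequence upstream of the 3 called genes was read to see which short binding motifs stand next to them. HAND1 belongs to a class of factors that bind the E-box CANNTG, and CATCTG is a form of it known for HAND proteins, whereas TAATTA is a core that many homeodomains bind. RefSeq promoter windows (GRCh38.p14, 250 bases before to 50 after the annotated start) were given for 41 of the 55 genes. The parts of the MIXL1 and HHEX windows outside annotated exons are printed, both on the forward strand, MIXL1 at chr1:226223414-226223617 and HHEX at chr10:92689705-92689950. The BARHL1 window lies wholly inside an annotated exon, so only the surroundings of its single CANNTG match (capitals) are shown, at chr9:132582371-132582396 on the forward strand, 225 bases before the RefSeq start.
MIXL1: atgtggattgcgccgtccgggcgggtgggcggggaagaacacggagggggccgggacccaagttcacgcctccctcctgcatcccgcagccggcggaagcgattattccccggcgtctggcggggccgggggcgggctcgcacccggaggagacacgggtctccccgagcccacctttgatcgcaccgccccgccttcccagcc
HHEX: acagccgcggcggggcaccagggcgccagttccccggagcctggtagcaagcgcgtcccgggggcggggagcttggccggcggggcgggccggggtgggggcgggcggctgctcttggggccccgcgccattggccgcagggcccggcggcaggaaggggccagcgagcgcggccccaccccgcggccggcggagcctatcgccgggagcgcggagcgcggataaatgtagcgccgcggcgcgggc
BARHL1: cctcagccacCACTTGcctggaagaa

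The shown MIXL1 and HHEX stretches are in lower case throughout because none of the motifs was found in them. Both strands were read, and each CATCTG match also counts as CANNTG. The whole MIXL1 and HHEX windows had 0 matches to any of the 3 motifs, and G and C made up 73.3% and 80.3% of their bases. The BARHL1 window had 1 CANNTG, spelled CACTTG, and 0 matches to the other motifs. Over all 35116 windows given, 68.7% held CANNTG, 14.7% held CATCTG and 4.84% held TAATTA. Of the 49 windows of the homeobox genes, 46.9%, 14.3% and 4.08% did so. A match is a run of letters, not a binding site, and a window without one says nothing about sites elsewhere.

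The MEIS and PBX genes had the highest summed level of the 13 family groups and no call. PBX2, a partner of HOX and MEIS proteins, was the most abundant of the 55 genes, at 107 and 119 FPKM in Control and 90.4 and 109 FPKM in HAND1_OE. The groups overlapped, and the log2 fold change was -0.18 (95% interval -0.59 to 0.23). PBX3 was at 10.9 ± 1.93 and 10.8 ± 2.02 FPKM and PBX4 at 1.40 ± 0.110 and 1.43 ± 0.773 FPKM in Control and HAND1_OE (SD, n = 2 each). Their log2 fold changes of -0.02 each were near 0 and took the opposite sign under quantile and median-ratio scaling. PBX3 had a second row in the table, and the row with the higher mean was used.

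MEIS1, a HOX partner known from blood stem cells, was at 30.0 and 32.5 FPKM in Control against 19.7 and 20.6 FPKM in HAND1_OE. The groups did not overlap, and both were tight, but the log2 fold change of -0.61 (standard error 0.143) did not pass the test (limma adjusted p = 0.0921). MEIS3 was at 2.32 and 4.12 FPKM in Control against 1.04 and 1.55 FPKM in HAND1_OE (-0.86, limma adjusted p = 0.199). It was also lower in both HAND1_OE libraries. MEIS2, a factor of heart, limb and neural crest, differed from both, at 41.5 and 24.6 FPKM in Control and 37.7 and 34.2 FPKM in HAND1_OE, with overlapping groups and a log2 fold change of 0.16. Among the tested genes MEIS1, MEIS2, SIX5, IRX3, ISL2 and HLX each share exon sequence with transcripts of the other strand. PBX2 shares some with AL662884.1 on its own strand. Whether the authors counted by strand is not given in the sources used here. The 6 MEIS and PBX genes summed to 192 to 194 FPKM in Control and 160.2 to 178 FPKM in HAND1_OE.

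NKX2-5, ISL1 and ISL2 were tested, and none of them was called. NKX2-5, a factor of heart progenitors, was at 40.9 and 22.9 FPKM in Control against 19.6 and 14.7 FPKM in HAND1_OE. Both HAND1_OE libraries lay below both Control libraries, but the Control libraries differed from each other by more than Control replicate 2 differed from HAND1_OE replicate 1 (log2 fold change -0.82, limma adjusted p = 0.250). ISL1, a LIM homeodomain factor of the second heart field and motor neurons, was at 3.53 and 2.91 FPKM in Control against 2.55 and 1.89 FPKM in HAND1_OE (-0.39, limma adjusted p = 0.429). ISL2, its neural relative, was at 1.48 and 1.63 FPKM in Control against 1.22 and 0.740 FPKM in HAND1_OE (-0.38, limma adjusted p = 0.489). Both were lower in each HAND1_OE library without passing the test. Of 7 cardiac muscle markers 4 were tested and 0 were called by limma (1 at an unadjusted p under 0.05), and the list summed to 7.31 to 8.93 FPKM in Control and 8.31 to 15.2 FPKM in HAND1_OE.

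The MSX factors are targets of BMP signalling in limb, heart cushion and neural crest. MSX2 was at 4.17 and 5.77 FPKM in Control against 1.95 and 3.49 FPKM in HAND1_OE, lower in both HAND1_OE libraries but not called (-0.70, limma adjusted p = 0.276). MSX1 had nearly the same pair of values in each group, 22.5 and 28.5 FPKM in Control and 28.3 and 22.5 FPKM in HAND1_OE. Its log2 fold change was -0.0041 with a 95% interval from -0.49 to 0.48, and its sign turned under quantile and median-ratio scaling.

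SIX4 and SIX5 belong to a family known from muscle, kidney and sense organs, and IRX3 and IRX5 to one that patterns heart and neural tissue. SIX5 was at 23.1 and 21.3 FPKM in Control against 16.2 and 14.0 FPKM in HAND1_OE. The groups did not overlap, yet SIX5 missed the threshold (-0.53, limma adjusted p = 0.158), and it shares exon sequence with the antisense gene DM1-AS and with AC074212.1 on the other strand. IRX5 was at 1.60 and 1.50 FPKM in Control against 1.21 and 1.14 FPKM in HAND1_OE (-0.23, limma adjusted p = 0.652). SIX4 was at 1.07 ± 0.342 and 0.889 ± 0.457 FPKM in Control and HAND1_OE (SD, n = 2 each), with overlapping groups. IRX3, which lies 644 kb from IRX5 on chromosome 16, was at 4.56 ± 0.519 and 4.34 ± 0.0320 FPKM, with overlapping groups and a log2 fold change of -0.06 that took the opposite sign under quantile and median-ratio scaling.

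The remaining tested genes also had overlapping groups. HLX, a factor of gut and liver mesenchyme and of blood cells, was at 8.47 and 18.4 FPKM in Control against 9.02 and 4.70 FPKM in HAND1_OE (log2 fold change -0.84, limma adjusted p = 0.396). CDX2, which marks trophectoderm, posterior mesoderm and gut, was at 0.280 and 1.21 FPKM in Control against 2.12 and 0.788 FPKM in HAND1_OE (0.49, limma adjusted p = 0.624). These spreads leave both genes without a resolved direction. OTX2, a factor of pluripotent cells and forebrain, was at 1.42 ± 0.152 and 1.18 ± 0.306 FPKM, and ALX1, a factor of craniofacial mesenchyme, at 1.75 ± 0.00577 and 1.88 ± 0.681 FPKM in Control and HAND1_OE (SD, n = 2 each).

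**Figure D3:**
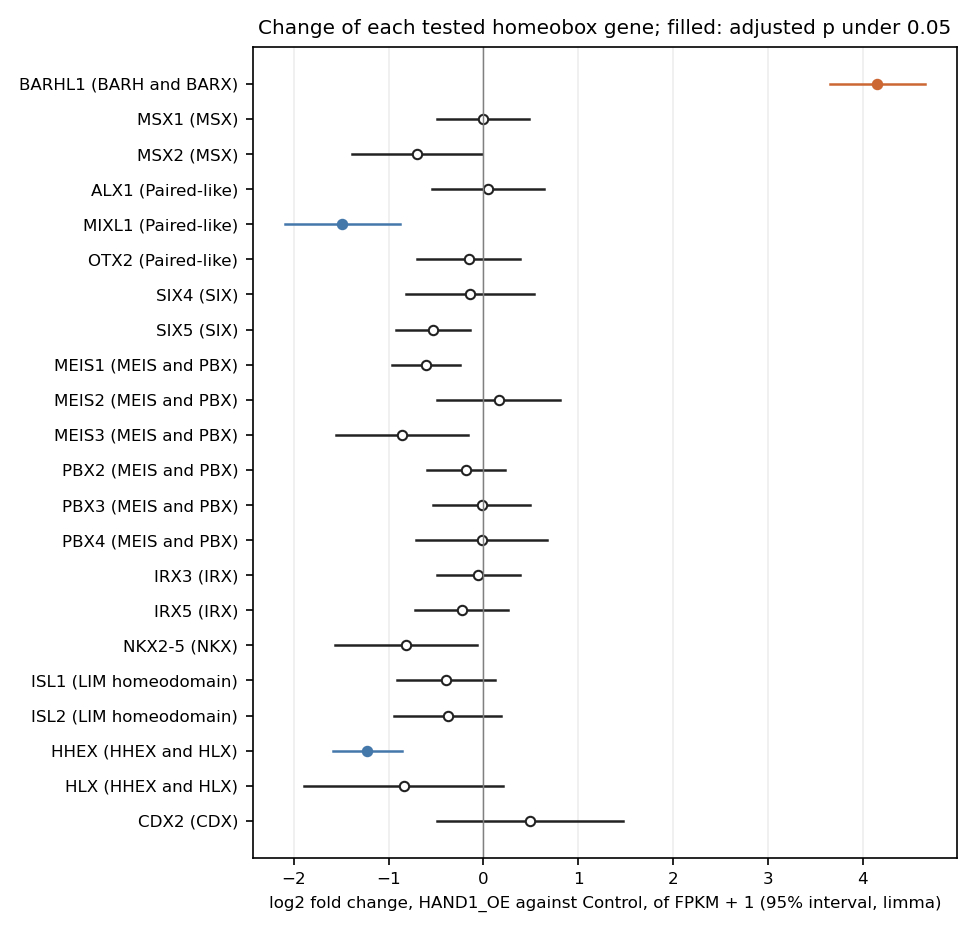
Log2 fold change of HAND1_OE against Control on the log2(FPKM + 1) scale for the 22 tested homeobox genes, with 95% limma intervals. BARHL1 at 4.16 stands alone on the right, 18 genes have values below 0, and among the genes not called the intervals of MSX2, SIX5, MEIS1, MEIS3 and NKX2-5 still lie below 0.

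Of the 22 tested genes, 18 had a log2 fold change below 0 and 4 above 0, with a median of -0.21, beside a median of -0.08 over all genes tested. In 10 of the 22 both HAND1_OE libraries lay below both Control libraries, and in 1, BARHL1, both lay above. Over all genes tested the groups lay apart in 46.3% (30.1% below and 16.2% above). At an unadjusted p under 0.05 in limma, 7 of the 22 were lower and 1 was higher, beside 10.6% lower and 6.82% higher of all genes tested. The summed level of the 55 genes was 410.2 and 409 FPKM in the Control libraries and 316 and 315 FPKM in the HAND1_OE libraries, a difference of -93.9 FPKM between the means. HHEX contributed -53.5 FPKM to it, NKX2-5 -14.8, PBX2 -13.2 and MEIS1 -11.1, while BARHL1 contributed 18.9.

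The 33 genes that were not tested were all low, with 1.30 FPKM for NKX2-3 as the highest library. GSC, a primitive streak and organizer factor, and EN1, a midbrain and limb factor, were listed at 0 in all 4 libraries. A listed 0 can be a failed estimate as well as an absent transcript. Another 12 stayed under 0.1 FPKM in every library. Among the 31 with a value above 0, both HAND1_OE libraries lay below both Control libraries for 10 and above them for 5. The corresponding shares of all genes above 0 but not tested were 19.6% and 11.1%.

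The DLX genes, factors of branchial arch, limb and forebrain interneurons that lie in pairs on 3 chromosomes, made up 4 of those 10. DLX2 was at 0.313 and 0.511 FPKM in Control against 0.0528 and 0.0605 FPKM in HAND1_OE. DLX1, 9.76 kb from DLX2 on chromosome 2, was at 0.194 and 0.270 FPKM in Control against 0.0413 and 0.147 FPKM in HAND1_OE. The pair was thus lower in both HAND1_OE libraries, at values that a few fragments set. DLX4 was at 0.171 and 0.366 FPKM in Control against 0.0436 and 0.0871 FPKM in HAND1_OE, while its neighbour DLX3 overlapped between groups, at 0 and 0.0822 FPKM against 0.0165 and 0.0377 FPKM. DLX5 was at 0.257 and 0.177 FPKM in Control against 0.0962 and 0 FPKM in HAND1_OE, and DLX6 was at most 0.0223 FPKM in any library. Summed over the 6 genes, the family was at 0.957 to 1.41 FPKM in Control and 0.269 to 0.333 FPKM in HAND1_OE, with no test.

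Among the other untested genes, those of 0.5 FPKM or more in some library went both ways. LHX6, a LIM homeodomain factor of interneurons and jaw mesenchyme, was at 0.0849 and 0.392 FPKM in Control against 1.16 and 0.968 FPKM in HAND1_OE. NKX2-3, a factor of spleen and gut mesenchyme and of the vessels there, was at 0.531 and 0.382 FPKM in Control against 1.30 and 0.824 FPKM in HAND1_OE. For both genes each HAND1_OE library lay above each Control library. GBX2, a hindbrain boundary factor, was at 0.123 and 0.672 FPKM in Control against 0.0619 and 0.0238 FPKM in HAND1_OE, so its Control level rests mainly on replicate 2. PITX1, a hindlimb factor, was at 0.255 and 0.906 FPKM in Control against 0.831 and 0.989 FPKM in HAND1_OE, with overlapping groups.

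CDX1, a posterior factor related to CDX2, was at 0.256 and 0.0869 FPKM in Control against 0.503 and 0.249 FPKM in HAND1_OE. IRX2 was at 0.286 and 0.591 FPKM in Control against 0.491 and 0.327 FPKM in HAND1_OE. SHOX2, a factor of the sinus node and limb, was at 0.256 and 0.399 FPKM in Control against 0.205 and 0.555 FPKM in HAND1_OE. These 3 overlapped between the groups. At lower levels, PITX3, MEOX1 and MEOX2 were higher in both HAND1_OE libraries, and OTX1, SIX2, IRX1, IRX4 and LHX2 were lower in both. PITX3, a factor of lens and midbrain dopamine neurons, was at 0 and 0.0509 FPKM in Control against 0.344 and 0.146 FPKM in HAND1_OE.

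**Figure D4:**
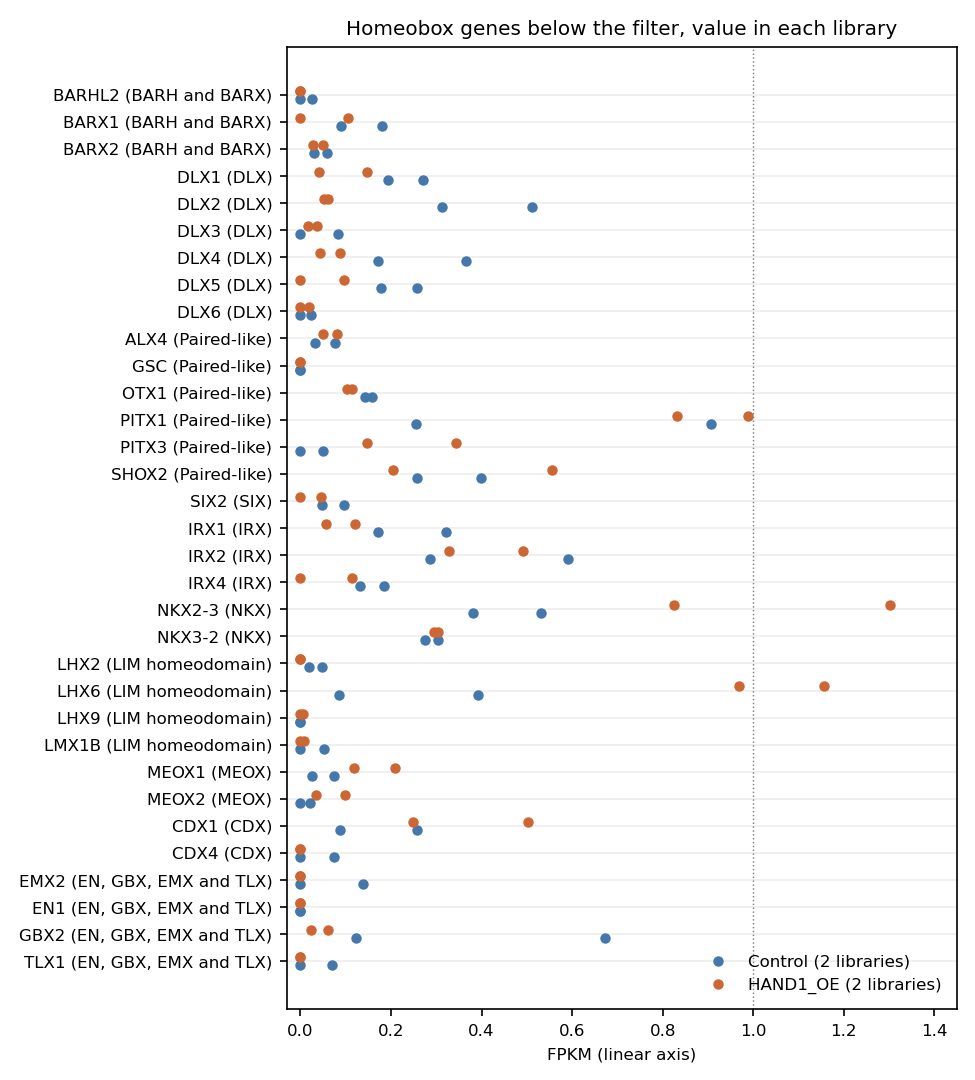
FPKM of the 33 untested homeobox genes in each Control and HAND1_OE library. The highest value is 1.30 FPKM, for NKX2-3 in a HAND1_OE library, and DLX1, DLX2, DLX4 and DLX5 lie lower in both HAND1_OE libraries than in both Control libraries.

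Other homeobox genes were read for comparison. Of 128 further homeobox genes outside the HOX clusters 38 were tested, 1 was called higher and 1 lower, 5.26% of those tested. LHX8, a LIM homeodomain factor of the forebrain and jaw and a close relative of LHX6, rose from 1.42 and 1.04 FPKM to 5.97 and 5.57 FPKM (log2 fold change 1.61, limma adjusted p = 0.0171). EMX1, a factor of the cerebral cortex, fell from 4.37 and 6.52 FPKM to 0.499 and 0.667 FPKM (-2.01, limma adjusted p = 0.0166), while its relative EMX2 was at 0 and 0.138 FPKM in Control and listed at 0 in both HAND1_OE libraries. The groups of LHX8 and of EMX1 lay far apart in opposite directions. Of the 39 HOX cluster genes 8 were tested and 0 were called by limma (1 at an unadjusted p under 0.05), with a median log2 fold change of 0.05.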

How the data were processed

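Total RNA was profiled in 4 libraries (TruSeq), grouped by their titles. The authors deposited 1 table of a value per gene and library, taken here as FPKM, the unit the study plots, since the file names none. The submitters' processing notes name BWA, Bowtie, RSEM and hg19 with no role, but of 58229 genes kept 55605 match GENCODE 29 on GRCh38 by versioned ID, 55583 of them with the same coordinates, so GRCh38 is used. Scaling between libraries is not given in the sources used here. Of 58365 rows, 45 Y copies of pseudoautosomal genes and 91 further rows sharing a gene ID were left out. FPKM gives no counts, so depth was read only as the relative step of 1 fragment.

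Genes reaching 1 FPKM in 2 libraries or more were compared as log2(FPKM + 1) in limma 3.58.1 under R 4.3.3, with the variance fitted as a trend on the mean and Benjamini-Hochberg adjustment over all genes tested, two-sided, with no covariate. An exact permutation test of 2 against 2 libraries cannot reach 0.05. The code was tested on simulated data. Members and lists were chosen with earlier results of these data known. Values per library are given for called genes, for tested genes whose groups do not overlap, and for untested genes reaching 0.5 FPKM. Group values are given for the other tested genes, and values for some family partners only. Per-library values of overlapping genes beyond that rule were added after their values were seen. Alternatives were a pseudocount of 0.1, 3 other expression filters, quantile and median-ratio scaling, limma without the trend, an added fold change of at least 2, the replicate number as a block, and each library left out.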

Additional observations from a re-analysis of the deposited data

How the results depend on the processing

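Direction and call of BARHL1, HHEX and MIXL1 held under a pseudocount of 0.1, a filter on the mean, quantile and median-ratio scaling and limma without the trend. The calls also held where a fold of 2 or more was asked for. All of these settings kept BARHL1 in the fit through its HAND1_OE libraries alone, so none of them could have left it out. Over these and the filter of 1 FPKM in every library, where fitted, the log2 fold change ranged from 4.16 to 6.47 for BARHL1, -2.10 to -1.37 for MIXL1 and -1.24 to -1.14 for HHEX. The filter mattered most. With every gene above 0 tested (53 of the 55 homeobox genes), limma called 0 genes higher and 0 lower, and so 0 and 0 of the homeobox genes and 0 and 0 of the other homeobox genes. Before adjustment, 1458 genes had p under 0.05 and a higher mean and 2352 a lower one, with 2 and 6 of the homeobox genes and 3 and 13 of the other homeobox genes. HAND1 then had a log2 fold change of 5.20 with an adjusted p = 0.153, BARHL1 and HHEX had an adjusted p = 0.153, MIXL1 0.223, LHX8 0.167 and EMX1 0.172. The cause was not tested. With 1 FPKM required in every library BARHL1 and MIXL1 were not in the fit, which left 0 homeobox genes higher (0 at an unadjusted p under 0.05) and 1 lower, HHEX. Of the other homeobox genes 0 were then lower (1 at an unadjusted p under 0.05). Without the trend, 2 of the other homeobox genes were lower.

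With the replicate number as a block, 597 genes were higher and 712 lower, 5 of the homeobox genes were lower (MEIS1, NKX2-5 and SIX5 besides HHEX and MIXL1, adjusted p = 0.0333, 0.0449 and 0.0476), and 2 of the other homeobox genes were higher and 3 lower. The labels do not say that a number marks a shared culture. Deviations of the first replicates from their group means correlated at 0.38 across 14622 genes, which are not independent, and there are only 2 pairs.

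Leaving out each library in turn gave 134 to 266 genes higher and 137 to 309 lower. For the homeobox genes it gave 1 higher in each case and 0 to 2 lower, 0 without either Control library (at an unadjusted p under 0.05, 6 and 3 lower) and 1 without HAND1_OE replicate 1. For the other homeobox genes it gave 0 to 1 higher and 1 to 2 lower, with LHX8 at an adjusted p = 0.0570 without Control replicate 2. The 1 higher homeobox gene was BARHL1, with log2 fold changes from 3.98 to 4.34. These fits kept the genes that passed the filter on the full set of libraries. BARHL1 passed it only through the 2 HAND1_OE libraries. Without either of them it would not have met the filter, so its place in those fits rests on the library left out. Only genes that were not called changed sign. Under quantile and median-ratio scaling respectively, which move the median of all genes to near 0, the log2 fold changes were 0.040 and 0.075 for MSX1, 0.054 and 0.056 for PBX3, 0.098 and 0.028 for PBX4, and 0.055 and 0.012 for IRX3. With a library left out they ranged from -0.17 to 0.16 for MSX1, -0.20 to 0.29 for ALX1, -0.39 to 0.11 for SIX4, -0.20 to 0.53 for MEIS2, -0.19 to 0.16 for PBX3, -0.35 to 0.31 for PBX4 and -0.15 to 0.039 for IRX3. The differences of MEIS1, SIX5 and NKX2-5 passed the threshold under the block alone. The counts behind values under 1 FPKM are unknown.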
